A study of Homo sapiens with 3 samples.

Results

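The kinesins are the motor proteins that walk along, slide or take apart microtubules, and their genes were examined here in the RNA of human embryonic stem cells. Members are the protein-coding genes of GENCODE release 44 whose symbol is KIF or KIFC followed by a number, a rule that uses no measured value and gave 42 genes of the 19629 protein-coding genes with counts. CENPE and STARD9, which also encode kinesins, have other symbols and are not among the 42. By the role each motor is best known for, 14 members were placed in a mitotic group and 17 in a transport group. A further 6 are known from cilia or Hedgehog signalling, and 5 have another, a dual or a poorly known role. This placing was done by hand, with earlier results of these data known.

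Total RNA was sequenced after depletion of ribosomal RNA from 3 replicates of H9, an established human embryonic stem cell line with wild-type genotype, grown without treatment in Essential 8 Flex medium on vitronectin. The deposited values are reads per gene, which totalled 10390984, 12024802 and 8655155 in replicates 1, 2 and 3. There is 1 condition, so no difference between conditions could be tested, and nothing in the labels says whether the replicates were separate cultures, so that the spread between them may be technical. Levels are given as TPM, computed here by dividing a gene's reads by the length of all its annotated exons, with the values of a replicate set to a common total. The pluripotency genes POU5F1, SOX2 and NANOG had means from 275 to 799 TPM. The 6 markers of neurons, endoderm and mesoderm examined had means from 1.47 to 15.3 TPM, with sums of 40.5, 38.1 and 48.4 TPM in replicates 1, 2 and 3 in all, and none was at 0 in any replicate.

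Kinesins share a motor domain that binds microtubules and hydrolyses ATP, and they differ in where that domain sits and in what the tail holds. Mitotic kinesins build the spindle, position chromosomes and complete cytokinesis, and many of their genes are transcribed late in the cell cycle. Transport kinesins carry vesicles, mitochondria, RNA and protein complexes along the tracks of cells that may or may not divide, and several are best known from axons. Embryonic stem cells divide quickly and are not neurons.

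The ATP-binding loop (P-loop) of the motor domain is the part that the whole family has in common, and its codons are shown for 6 members to place the motor within each gene. The loop was found in the annotated coding sequence of all 42 members by its spacing of glycine, lysine and serine or threonine codons (the first match in each). The stretches below are on GRCh38, from 5′ to 3′ on the strand of the gene, with every base in capitals since all belong to the loop.
KIF11, chr10:92607163-92607186, plus strand, exon 4: GGCCAAACTGGCACTGGAAAAACT
KIF5B, chr10:32040396-32040419, minus strand, exon 3: GGACAAACATCCTCTGGGAAGACA
KIF2C, chr1:44757620-44757643, plus strand, exon 11: GGCCAGACAGGAAGTGGCAAGACA
KIFC1, chr6:33405323-33405346, plus strand, exon 7: GGCCAGACAGGCAGTGGCAAGACC
KIF4A, chrX:70297024-70297047, plus strand, exon 4: GGGCAGACTGGCTCTGGAAAAACC
KIF4B, chr5:155014121-155014144, plus strand, exon 1: GGGCAGACTGGCTCTGGAAAAACC
In 15 of the 17 transport genes the loop lay within the first 25% of the coding sequence, and the median position over the 17 was at 8.79% of its length. KIFC2 and KIFC3, of the minus-end directed family, had it past the midpoint. Of the mitotic genes 10 of 14 had the loop within the first 25%. KIFC1, which also walks to the minus end and bundles spindle microtubules, had it at 60.9% of the coding length, and the microtubule-depolymerizing KIF2C and KIF2B had it at 48.0% and 45.0%. In KIF14 it lay at 27.1%. KIF4A and KIF4B had the same 24 bases, within 31 exons in KIF4A and a single exon in KIF4B.

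Stretches of promoter are shown next, since short letters known from cell cycle genes were found in most mitotic members. In transport members each was about as frequent as in all protein-coding genes, with the shares given below. Genes of the late cell cycle often carry a cell cycle genes homology region (CHR), with the core TTTGAA or TTCGAA, and CCAAT boxes, which the factor NF-Y binds. These letters were searched on both strands in windows from 250 bases before to 50 bases after the start site in RefSeq sequences of GRCh38.p14, with 1 window per gene. A window was held for 34 of the 42 members, that is for 14 mitotic, 12 transport, 4 cilium and 4 other genes. The promoters of KIFC2, KIFC3, KIF5A, KIF13B, KIF21B, KIF19, KIF27 and KIF26B were not analysed here. Capitals mark a CHR-type core or a CCAAT box, and on the other strand TTTGAA reads TTCAAA and CCAAT reads ATTGG, while TTCGAA reads the same on both. KIF20A, a mitotic gene without the core anywhere in its window, is shown only around its CCAAT boxes. KIF5B is shown as the transport gene with the core.
KIF11, chr10:92593050-92593141, plus strand: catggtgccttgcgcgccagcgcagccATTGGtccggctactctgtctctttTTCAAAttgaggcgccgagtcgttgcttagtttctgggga
KIFC1, chr6:33391743-33391834, plus strand: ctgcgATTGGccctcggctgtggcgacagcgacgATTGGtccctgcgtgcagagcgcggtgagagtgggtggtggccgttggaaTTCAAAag
KIF18B, chr17:44947762-44947853, minus strand: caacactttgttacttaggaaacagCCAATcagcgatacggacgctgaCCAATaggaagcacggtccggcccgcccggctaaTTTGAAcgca
KIF23, chr15:69414269-69414360, plus strand: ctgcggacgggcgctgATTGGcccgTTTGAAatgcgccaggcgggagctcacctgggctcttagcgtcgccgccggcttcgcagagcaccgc
KIF18A, chr11:28108145-28108236, minus strand: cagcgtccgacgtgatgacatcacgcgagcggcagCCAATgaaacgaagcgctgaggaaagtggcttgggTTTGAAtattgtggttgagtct
KIF4A, chrX:70290024-70290115, plus strand: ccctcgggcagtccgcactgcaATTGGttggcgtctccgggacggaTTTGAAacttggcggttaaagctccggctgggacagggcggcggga
KIF4B, chr5:155013675-155013766, plus strand: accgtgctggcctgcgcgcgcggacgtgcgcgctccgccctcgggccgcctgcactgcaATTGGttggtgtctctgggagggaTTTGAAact
KIF22, chr16:29790671-29790762, plus strand: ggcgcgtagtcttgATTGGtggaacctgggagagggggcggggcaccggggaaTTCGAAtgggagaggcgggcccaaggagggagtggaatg
KIF20A, chr5:138179012-138179062, plus strand: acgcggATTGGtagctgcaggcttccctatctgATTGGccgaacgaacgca
KIF5B, chr10:32056475-32056575, minus strand: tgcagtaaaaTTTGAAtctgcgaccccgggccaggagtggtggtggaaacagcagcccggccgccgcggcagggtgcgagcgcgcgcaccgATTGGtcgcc
Most of these stretches run from base -80 to base 12, counted from the start site, while KIF20A is shown from -100 to -50 and KIF5B from -150 to -50. In KIF4A the CCAAT box lay at -58 to -54 and TTTGAA at -34 to -29, and in KIF4B the nearer CCAAT box lay at -21 to -17 and TTTGAA at 4 to 9.

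TTTGAA was present in the windows of 10 of 14 mitotic genes (71.4%) and of 1 of 12 transport genes (8.33%). Over all protein-coding genes with a window, 1765 of 15248 had it (11.6%). The 10 mitotic genes were KIF11, KIFC1, KIF20B, KIF18B, KIF4A, KIF23, KIF14, KIF15, KIF18A and KIF4B, with matches between bases -55 and 36. KIF4B is an intronless copy of KIF4A, and the stretches above show nearly the same letters around the core and the nearer CCAAT box of both. The pair is therefore not separate cases in the counts of TTTGAA and CCAAT. Those bases were set by the mitotic matches, so a count within them cannot compare the groups. Of all genes with a window, 3.02% had TTTGAA there. KIF5B, the one transport gene with a match, had it farther upstream, at -140 to -135. Of the 4 mitotic genes without TTTGAA, KIF22 had the variant TTCGAA at -27 to -22, KIF20A had only CCAAT boxes, and KIF2C and KIF2B had neither. TTCGAA was found in 1.57% of all windows, and KIF24 at 2 to 7 was the other member with it.

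CCAAT occurred in 11 of 14 mitotic windows (78.6%), in 4 of 12 transport windows (33.3%) and in 36.7% of all. Both CCAAT and TTTGAA were present in 9 of the 14 mitotic genes, in KIF5B alone among the 12 transport genes and in 4.91% of all genes. The base composition of the windows differed as well, with a median GC content of 62.0% for mitotic, 74.3% for transport and 63.7% for all genes, and its part in these counts was not tested. TATAAA, the core of the TATA box, was found in 2 of the 34 members (5.88%), against 9.35% of all genes. These were KIF4B and KIF2B, with matches far upstream of the start site, at -164 to -159 and at -249 to -244. A match is a description of the letters and not a bound site.

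**Figure D1:**
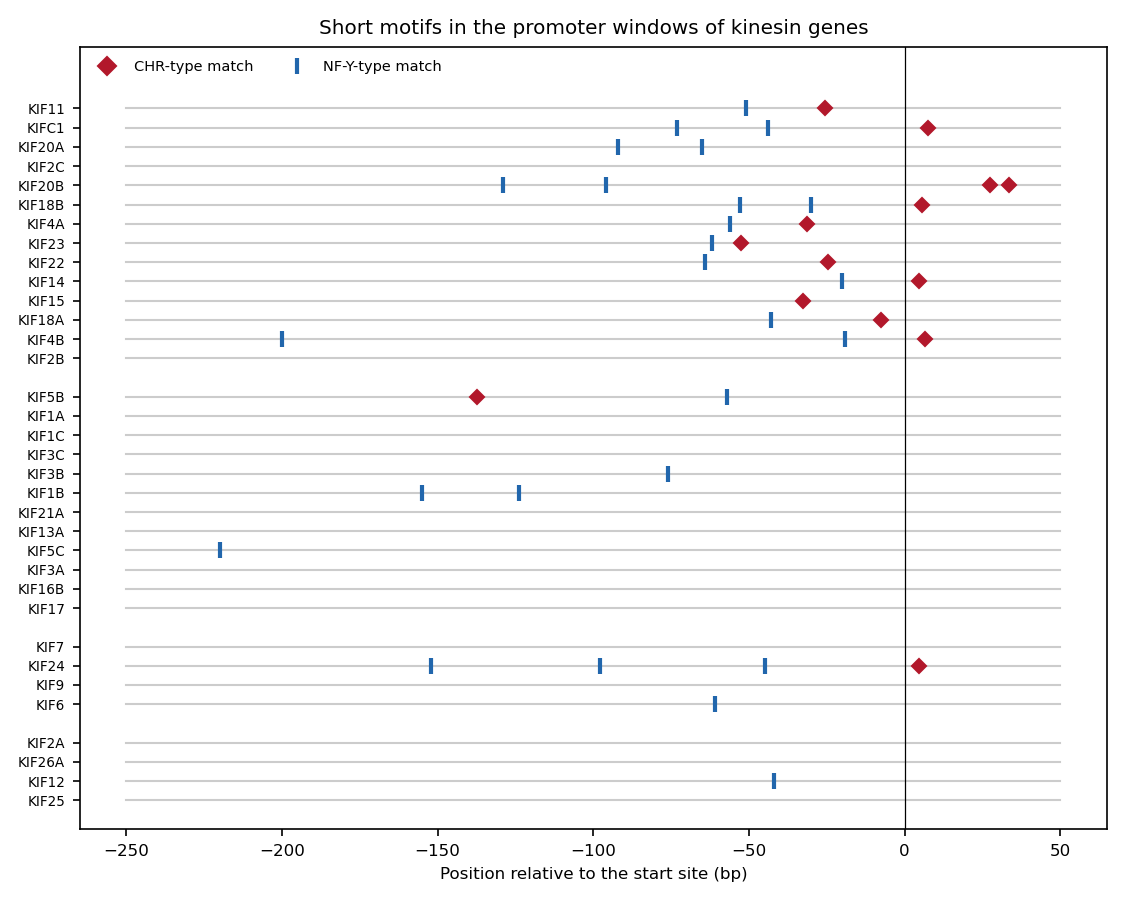
Positions of CHR-type cores (red diamonds) and NF-Y-type boxes (blue bars) in the promoter windows of 34 kinesin genes. The horizontal axis gives bases from the start site, each grey line is the window of 1 gene, and the blocks from top to bottom are mitotic, transport, cilium and other genes. In the mitotic block 11 of 14 windows hold a diamond, most of them close to the start site, and in the transport block only KIF5B does.

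The mitotic kinesins were the more abundant group. Genes under 0.01 TPM were called nonexpressed and the remaining protein-coding genes were split into 3 equal classes of mean level (low, medium and high), with limits at 3.35 and 26.96 TPM. The high class held 28.8% of all protein-coding genes, 57.1% of the kinesins (24 of 42), 85.7% of the mitotic group (12 of 14) and 58.8% of the transport group (10 of 17). Among these transport genes, KIFC2 was below the limit of the high class in replicate 1 (26.87 TPM) and KIF5C in replicate 3 (26.65 TPM). Nonexpressed genes were 13.6% of all and 1 of the 42 kinesins. The median of the members' mean levels was 78.4 TPM for mitotic and 30.6 TPM for transport kinesins, beside 7.10 TPM over all protein-coding genes. In bulk RNA a lower level may come from fewer cells of a kind or from less RNA per cell, which cannot be told apart. A level is an average over all cells of the culture, in mitosis or not.

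Each replicate gave the same order of the groups. The mitotic median was 81.55, 80.3 and 73.35 TPM in replicates 1, 2 and 3, and the transport median was 30.1, 29.8 and 31.2 TPM. Their ratio was 2.71, 2.70 and 2.35, which is 2.59 ± 0.202 (SD, n = 3). In every replicate 12 of the 14 mitotic genes were above the transport median. Summed over genes the ratio was smaller, at 1.46 ± 0.0311 (SD, n = 3), with KIF5B and KIF1A of the transport group among the 4 highest kinesins. The mitotic sum was 1088 ± 23.8 TPM and the transport sum 743 ± 11.6 TPM, so mitotic genes held 56.0 ± 0.629% of kinesin TPM and transport genes 38.3 ± 0.387% (SD, n = 3 for each). The cilium and other groups added 44.1 ± 1.56 and 66.5 ± 4.81 TPM. All kinesins together made up 0.198%, 0.193% and 0.192% of TPM and 0.373%, 0.362% and 0.368% of reads in replicates 1, 2 and 3.

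The choice of gene length bears on this contrast. Transport genes are longer, with a median exon length of 9602 bp against 4645 bp for mitotic and 4471 bp for all protein-coding genes. Their annotated exons also reach farther past the Ensembl canonical transcript, by a median factor of 1.36 against 1.13 for mitotic genes and 1.31 for all genes. With the canonical transcript as length, chosen after seeing the data, the mitotic median was 60.3 ± 1.97 and the transport median 35.8 ± 0.811 TPM. The ratio was then 1.69 ± 0.0388 (SD, n = 3), 9 of the 14 mitotic genes were above the transport median in every replicate in place of 12, and the high class held the same number of mitotic genes, 12, and 9 transport genes. The mitotic median was the higher one under both lengths. Because all replicates have that common total, a level can also change when a gene's own length does not: KIF5B has 5866 bp under both, yet has 165.5 TPM on the scale of all exons and 99.9 TPM on that of canonical transcripts. So the size of a level means something only beside other genes on the same scale.

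**Figure D2:**
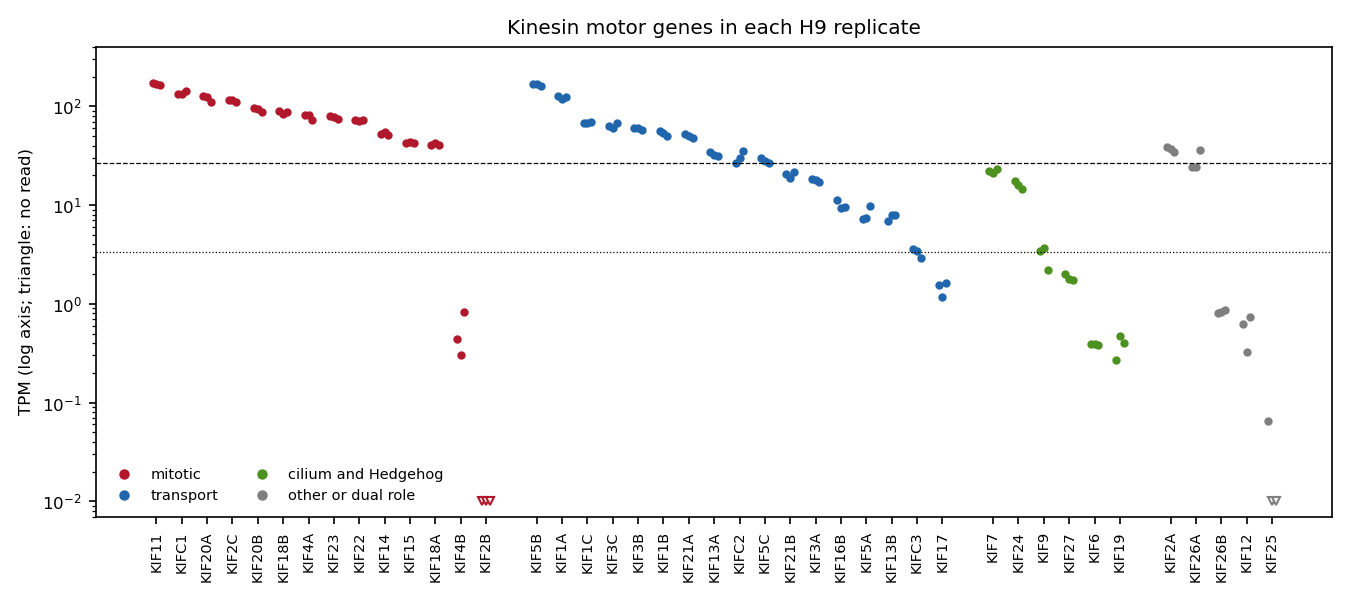
TPM of the 42 kinesin genes in replicates 1 to 3 (points from left to right, log axis), by group and in order of mean level, with triangles for replicates without a read. The dashed line is the lower limit of the high class (26.96 TPM) and the dotted line that of the medium class (3.35 TPM). In the mitotic group 12 genes lie above the dashed line in every replicate and KIF4B and KIF2B far below it, while the transport genes are spread over the 3 classes.

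Among the mitotic kinesins the motor that pushes spindle poles apart, KIF11 (Eg5; ENSG00000138160, chromosome 10, 92574105 to 92655395), was the highest with all exons as length. It had 2401, 2693 and 1953 reads in replicates 1, 2 and 3, or 173, 167 and 165 TPM. Its mean of 169 ± 4.17 TPM (SD, n = 3) was above that of 95.8% of protein-coding genes. KIF15, which can share the pole-separating work of KIF11, had 42.2, 43.55 and 42.6 TPM, and KIF11 was 3.94 ± 0.144 times as high (SD, n = 3).

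KIFC1, the bundling motor shown above, had 134, 134.6 and 144.5 TPM, a mean of 138 ± 5.92 (SD, n = 3). With all exons as length its range did not overlap that of KIF11 or of KIF1A, the next in order. With canonical transcripts it had 105 ± 4.96 TPM, below KIF1A at 145 ± 5.84 TPM (SD, n = 3 for both). On that scale its range overlapped that of KIF11. Of the exon length of KIFC1 13.99% is also annotated to another gene, RPL12P1, so part of its reads is uncertain.

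The motors of the midzone and of cytokinesis followed. KIF20A (MKLP2), which brings the chromosomal passenger complex to the midzone, had 127, 124 and 110.5 TPM, highest in replicate 1 and lowest in replicate 3. Its relative KIF20B had 96.8, 94.7 and 87.3 TPM, and KIF20A was 1.29 ± 0.0251 times as high (SD, n = 3). KIF23 (MKLP1), the motor of centralspindlin, had 80.4, 78.0 and 73.8 TPM. KIF4A, which limits the length of midzone microtubules, had 82.7, 82.6 and 72.9 TPM. The ranges of KIF23 and KIF4A overlapped with all exons as length but not with canonical transcripts. KIF14, which works late in cytokinesis, was lower, with 52.0, 55.5 and 51.5 TPM.

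The motors that act at plus ends and on chromosomes covered a similar span. KIF2C (MCAK), which takes microtubules apart at centromeres, had 116, 115 and 112 TPM. KIF2A, of the same family but with roles both at spindle poles and in neurons, was counted in neither group, and had 39.15, 36.9 and 34.25 TPM. KIF2C was thus 3.12 ± 0.144 times as high as KIF2A (SD, n = 3), and 21.3% of the exon length of KIF2A overlaps other genes, mainly DIMT1 on the opposite strand. KIF18B had 90.8, 83.2 and 88.2 TPM and KIF18A, which dampens the movements of aligned chromosomes, 40.8, 42.8 and 41.0 TPM, a ratio of 2.11 ± 0.145 (SD, n = 3). KIF22 (Kid), which pushes chromosome arms outward, had 73.1, 70.6 and 72.4 TPM. Its place depended on length, as it has 7169 bp of annotated exons and 2081 bp in the canonical transcript. With canonical transcripts it had 150 ± 2.89 TPM (SD, n = 3), the highest mean of the 42 kinesins on that scale, with a range that overlapped that of KIF1A.

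KIF4B and KIF2B, both with a single exon, stood apart from the other mitotic genes. KIF4B, an intronless copy of KIF4A, had 5, 4 and 8 reads, or 0.438, 0.301 and 0.822 TPM. KIF4A had 984, 1143 and 740 reads. The transcripts of the pair match over 4345 bp at 95.3% identity, so reads of KIF4A can be placed on KIF4B, and neither the presence nor the ratio of KIF4B can be judged at these counts. KIF2B had 0 reads in all 3 replicates, which allows up to 3 reads in each, or 0.508, 0.437 and 0.596 TPM. These limits cover counting error only.

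Among the transport kinesins the ubiquitous heavy chain of kinesin-1, KIF5B (ENSG00000170759, chromosome 10, 32009015 to 32056425), was the highest with all exons as length, and KIF1A was with canonical or longest transcripts. KIF5B had 2558, 2965 and 2110 reads, or 168, 167 and 162 TPM. KIF11 was above KIF5B in 3 of 3 replicates, but only by a factor of 1.02 ± 0.0168 (SD, n = 3). The ranges of the pair overlapped. With canonical transcripts the factor was 1.08 ± 0.0178 (SD, n = 3) and the ranges were apart. KIF5C, a heavy chain known best from neurons, had nearly as many reads, 2599, 2813 and 1961. Over its 33151 bp of annotated exons these came to 30.1, 28.0 and 26.65 TPM. KIF5B was then 5.87 ± 0.271 times as high, but with the canonical length of 6954 bp for KIF5C the ratio was 1.23 ± 0.0568 (SD, n = 3). KIF5B stayed above KIF5C in 3 of 3 replicates under both lengths. KIF5A, the third heavy chain and also neuronal, had 229, 275 and 267 reads, or 7.18, 7.42 and 9.82 TPM.

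KIF1A (ENSG00000130294, chromosome 2, 240713761 to 240824293), the axonal carrier of synaptic vesicle precursors, had more reads than any other kinesin, with 5902, 6362 and 4939. Its level was 127, 118 and 124.5 TPM, in the high class in every replicate. It was 2.30 ± 0.141 times as high as KIF1B, which carries mitochondria and vesicles, and 1.80 ± 0.0588 times as high as KIF1C, which moves vesicles and RNA (SD, n = 3 for both). KIF1B had 56.3, 53.6 and 50.55 TPM and KIF1C 68.0, 67.3 and 69.2 TPM. The order against the leading genes of the family turned with the length. KIF5B over KIF1A was 1.35 ± 0.0636 with all exons and 0.688 ± 0.0325 with canonical transcripts, and KIF11 over KIF1A was 1.37 ± 0.0471 and 0.744 ± 0.0255 (SD, n = 3 for each).

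Neuronal marker genes were low beside KIF1A but not absent. STMN2 had 15.2, 12.8 and 17.9 TPM, MAP2 had 13.2, 13.6 and 16.9 TPM, and TUBB3 had 6.42, 7.70 and 8.56 TPM. All of these were in the medium class. Their part in the levels of KIF1A, KIF5A and KIF5C was not tested.

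**Figure D3:**
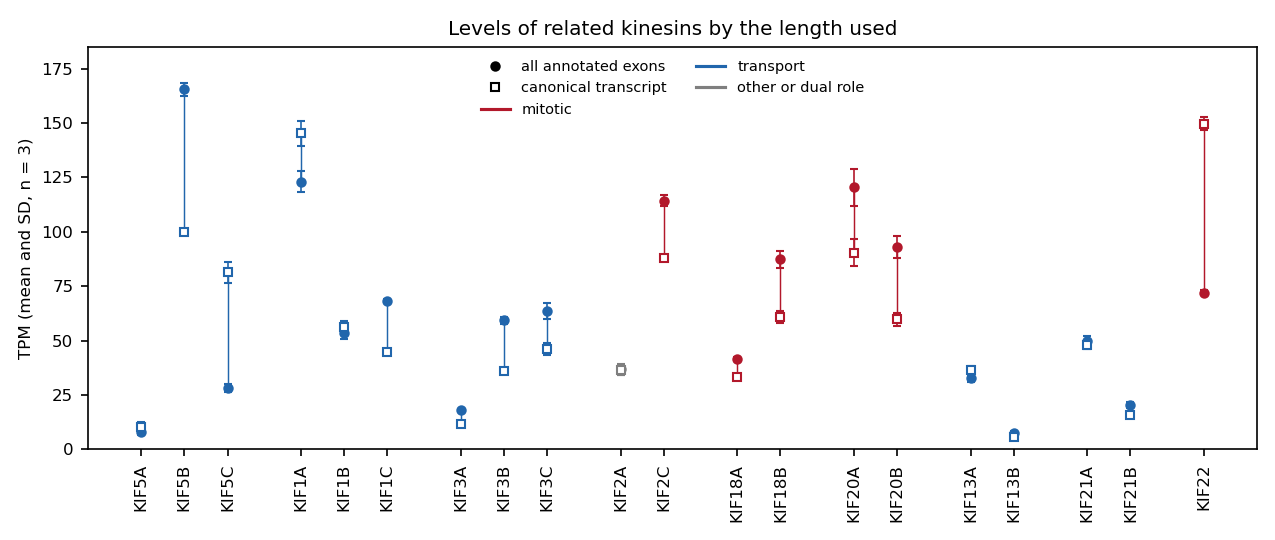
Mean TPM of 20 related kinesins with all annotated exons as length (filled circles) and with the canonical transcript (open squares); bars show the SD over 3 replicates and colours the groups. Read among the genes of 1 scale, KIF5C (28.3 TPM) is far below KIF5B (165.5 TPM) with all exons and near it with canonical transcripts (81.3 and 99.9 TPM), and KIF22 is the highest only with canonical transcripts.

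Kinesin-2 is a heterotrimer of KIF3A, either KIF3B or KIF3C, and the accessory subunit KIFAP3, and it drives transport inside cilia and along axons. KIF3B had 60.5, 60.0 and 57.5 TPM and KIF3C 63.7, 60.1 and 67.3 TPM. Their ranges overlapped with all exons as length but not with canonical transcripts. KIF3A, the partner shared by both, was lower at 18.3, 18.0 and 17.3 TPM. KIF3B was 3.32 ± 0.00799 times as high as KIF3A, and KIF3B and KIF3C together were 6.89 ± 0.276 times as high (SD, n = 3 for both). KIFAP3 had 30, 44 and 30 reads, or 2.32, 2.92 and 2.72 TPM, in the low class. KIF3A over KIFAP3 was 6.81 ± 0.935 with all exons and 4.395 ± 0.603 with canonical transcripts (SD, n = 3). RNA levels are not amounts of assembled subunits. KIF17, the motor of a homodimeric kinesin-2 of cilia and dendrites, had only 18, 16 and 16 reads, or 1.55, 1.18 and 1.61 TPM, the lowest of the transport group.

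The remaining transport motors ran from the high to the low class. KIF21A, a regulator of microtubule growth in axons, had 49.96 ± 2.13 TPM and KIF21B 20.2 ± 1.38 TPM. KIF13A, which moves endosomes, had 32.7 ± 1.51 TPM and KIF13B 7.64 ± 0.572 TPM, and the early endosome motor KIF16B had 10.1 ± 0.970 TPM (SD, n = 3 for each). In both pairs the A member was above the B member in each replicate, by a mean factor of 2.48 ± 0.224 for KIF21A over KIF21B and of 4.30 ± 0.522 for KIF13A over KIF13B. KIFC2 had 26.9, 29.8 and 35.3 TPM, highest in replicate 3, and 17.8% of its exon length is shared with FOXH1. KIFC3 had 3.56, 3.41 and 2.91 TPM, on the border of the low and medium classes.

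The partners of the motors were taken from lists of known complexes. Of 11 kinesin light chains and adaptors, 4 were in the high, 6 in the medium and 1 in the low class, with a median of 15.7 TPM, beside 28.8% of all protein-coding genes in the high class and a median of 7.10 TPM. The 4 light chains of kinesin-1 summed to 68.4 ± 4.15 TPM and the 3 heavy chains to 202 ± 3.17 TPM, a ratio of 2.96 ± 0.216 (SD, n = 3). With canonical transcripts the ratio was 1.52 ± 0.127 (SD, n = 3), where KLC1 was the highest light chain at 53.3 TPM. With all exons KLC2 was the highest, at 26.5, 26.6 and 28.6 TPM, and KLC1 had 11.7 ± 0.746 TPM (SD, n = 3). Of its exon length 40.6% is shared with other genes.

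All 12 spindle and midzone partners of the mitotic kinesins were in the high class under both lengths, beside 28.8% of all protein-coding genes. With all exons as length they ran from 65.5 TPM for KNSTRN to 303.5 TPM for TPX2, with a median of 135.6 TPM. TPX2, which targets KIF11 and KIF15 to spindle microtubules, had 311, 309.5 and 290 TPM. RACGAP1, the other subunit of centralspindlin, had 82.6, 85.65 and 80.4 TPM, close to KIF23. KIF23 over RACGAP1 was 0.934 ± 0.0344 with all exons and 1.16 ± 0.0428 with canonical transcripts (SD, n = 3), so the order of the 2 depended on the length. PRC1, which brings KIF4A to the midzone, had 74.4, 73.0 and 75.1 TPM, and KIF4A over PRC1 was 1.07 ± 0.0876 and 0.621 ± 0.0508, respectively (SD, n = 3). Of the exon length of PRC1, 61.85% is shared with other genes. For NUSAP1 and PLK1 in the same list the share is 86.8% and 12.8%, so part of the reads of these genes is uncertain. CENPE, the kinesin of the kinetochore that the naming rule does not reach, had 68.45, 67.1 and 64.0 TPM and would fall within the span of the mitotic group.

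Dynein 1, the motor that runs opposite to most kinesins, had 8 of 11 subunit genes in the high class, 1 in the medium and 2 in the low. The high class held 28.8% of all protein-coding genes. Its heavy chain DYNC1H1 had 68.45, 61.8 and 58.5 TPM, which was 0.380 ± 0.0253 of the level of KIF5B (SD, n = 3), and 0.741 ± 0.0493 with canonical transcripts.

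**Figure D4:**
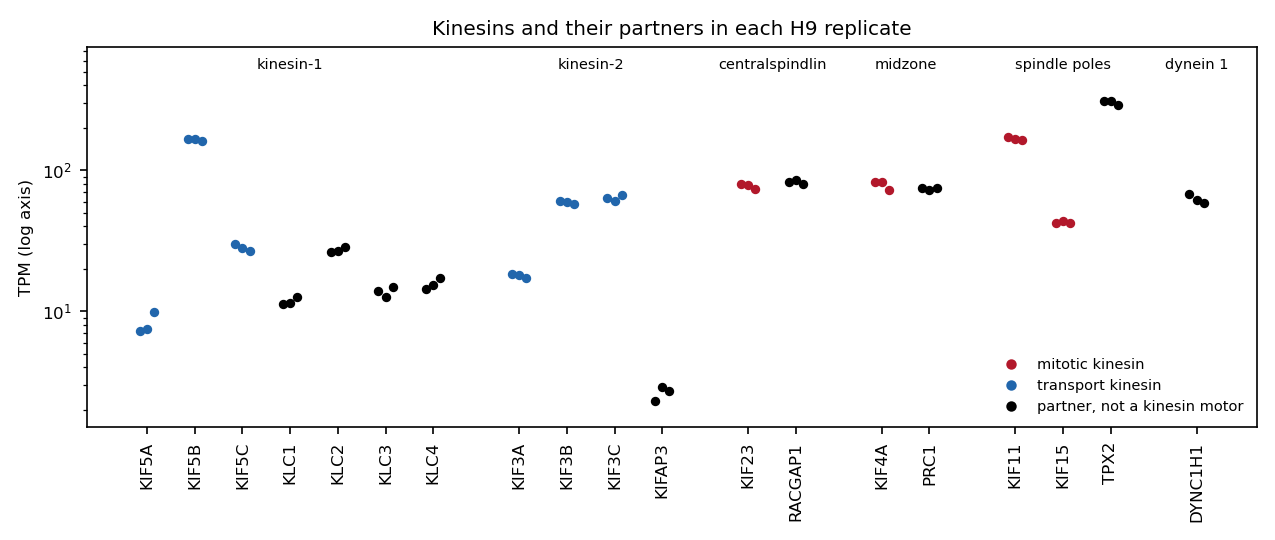
TPM (log axis) of kinesins and their partners in replicates 1 to 3, points from left to right, with mitotic kinesins in red, transport kinesins in blue and partner genes in black. KIF5B lies above all 4 light chains, KIFAP3 lies below KIF3A, KIF3B and KIF3C, and KIF23 and RACGAP1 lie side by side.

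None of the 6 cilium and Hedgehog kinesins was in the high class, which held 28.8% of all protein-coding genes. KIF7, a regulator of the Gli factors at the tip of the cilium, was the highest with 22.2, 21.3 and 23.5 TPM, and KIF24, which removes microtubules at the centriole and holds back ciliation, had 17.55, 16.0 and 14.5 TPM. The other 4 were in the low class. KIF9, found in motile cilia, had 52, 66 and 29 reads, and KIF27, a relative of KIF7, had 40, 42 and 30. KIF6 had 12, 14 and 10 reads and KIF19, which trims the tips of cilia, had 4, 8 and 5. Their means ran from 0.380 ± 0.0995 TPM for KIF19 to 3.11 ± 0.784 TPM for KIF9 (SD, n = 3). KIF9 shares 17.8% of its exon length with other genes, KIF7 10.8% and KIF27 10.7%. KIF27 also has copies elsewhere, the longest matching over 1560 bp at 97.6% identity, so its reads are uncertain.

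Of the 5 members of other or dual role, KIF2A was described above and KIF26A was the only other one past 1 TPM. KIF26A, an atypical kinesin without motor activity, had 446, 523 and 563 reads, or 24.3, 24.55 and 36.0 TPM. It had the largest CV of the 31 members with at least 300 reads, 23.6%, where counting alone would give 4.42%. It was above the limit of the high class in replicate 3 only. KIF26B had 30, 36 and 28 reads, and KIF26A was 33.8 ± 6.40 times as high (SD, n = 3). KIF12 had 5, 3 and 5 reads, and KIF25 had 1, 0 and 0, which is within the limit that a count of 0 allows.

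Ordered by mean level with all exons as length, the 42 members form 41 pairs of neighbours. In 22 of these the ranges of the 3 replicates overlapped. Such pairs, among them KIF11 and KIF5B, KIF1A and KIF20A, KIF20A and KIF2C, KIF4A and KIF23, and KIF1B and KIF14, did not differ beyond the spread of their separate ranges on that scale. With canonical transcripts, of the pairs just named, only KIF20A and KIF2C still overlapped. On that other scale KIF23 had 83.9 TPM and KIF4A 49.9 TPM, and KIF1B had 56.2 TPM and KIF14 32.0 TPM. The genes of a pair come from the same libraries. With all exons as length, KIF11 was above KIF5B, KIF1C above KIF3C and KIF3C above KIF3B in 3 of 3 replicates. So were KIF15 above KIF18A, KIF7 above KIF21B and KIF3A above KIF24. With canonical transcripts KIF15 was below KIF18A in 3 of 3 replicates. The mean of KIF1C was then 44.55 TPM, below the 46.1 TPM of KIF3C, and KIF7 was below KIF21B in replicate 1. Of the wider steps with all exons as length, KIFC1 lay clear of KIF5B above it and KIF1A below it, and KIF2C lay clear of KIF20B. With canonical transcripts KIFC1 was instead above KIF5B and below KIF1A in 3 of 3 replicates, and KIF2C still lay clear of KIF20B. Of the members, 38 had the same class under both lengths, KIFC3 and KIF9 moved from low to medium with the canonical length, and KIFC2 and KIF26A moved from high to medium.

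The difference between replicates moved with base composition. Over the 31 kinesins with at least 300 reads, all 18 with a transcript GC content under 50% were lower in replicate 3 than in the mean of replicates 1 and 2, with a median log2 difference of -0.10. Of the 13 with 50% or more, only KIF2C was lower, and their median was 0.11. Among all 9771 protein-coding genes with as many reads, 73.7% of those under 50% GC and 38.5% of the others were lower in replicate 3, with medians of -0.08 and 0.05. The rank correlation of the difference with GC was 0.648 over the 31 kinesins and 0.423 over the 9771 genes, given as a description, since all points share the same 3 libraries.

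The kinesins farthest from 0 were KIF26A at 0.56 (68.6% GC), KIF5A at 0.43 (51.1%) and KIFC2 at 0.32 (67.2%), all higher in replicate 3. KIF24 (-0.21), KIF20A (-0.18) and KIF4A (-0.18), all under 50% GC, were the lowest. The median transcript GC was 45.9% for mitotic and 51.1% for transport genes. Among those with at least 300 reads, the median log2 difference was -0.048 for mitotic and -0.046 for transport genes. Of the mitotic genes with enough reads 9 of 12 were lower in replicate 3, of the transport genes 8 of 15, and of all genes 58.65%. With all exons as length, replicate 3 gave the smallest ratio of the mitotic to the transport median, 2.35. With canonical transcripts the ratio was 1.72, 1.64 and 1.69 in replicates 1, 2 and 3, smallest in replicate 2. The levels of KIF5A, KIFC2 and KIF26A were largest in replicate 3. The part of GC content in these values was not tested.

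**Figure D5:**
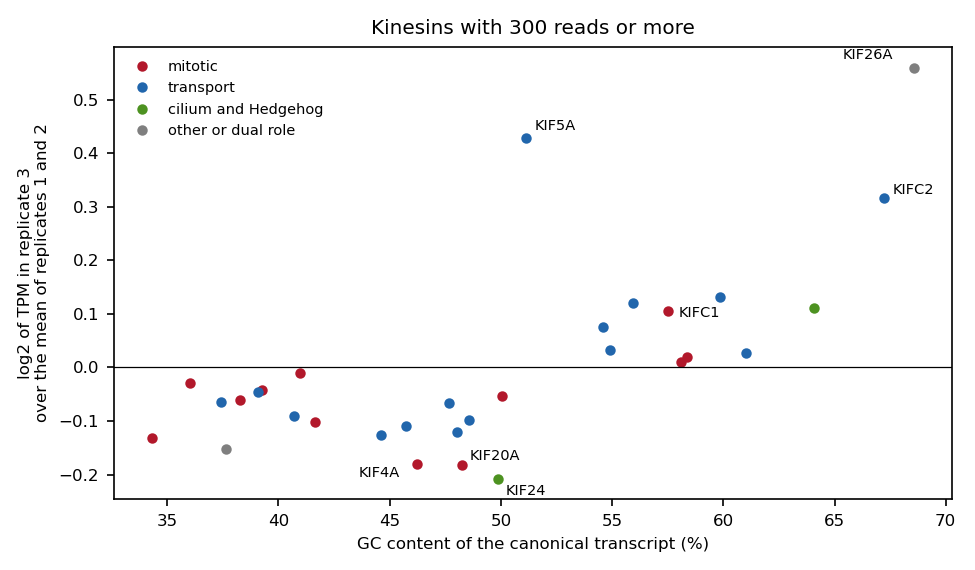
Log2 of the TPM in replicate 3 over the mean of replicates 1 and 2, against the GC content of the canonical transcript, for the 31 kinesins with at least 300 reads. All 18 points left of 50% lie below 0 and 12 of the 13 points at 50% or more lie above it, with KIF26A highest at 0.56.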

How the data were processed

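Total RNA of 3 H9 replicates was depleted of ribosomal RNA and sequenced. The submitters' processing notes name Trim Galore 0.4.4, TopHat2 2.1.1 and Cufflinks 2.2.1. The authors deposited whole-number counts of reads per gene, without normalization, on GRCh38; the counting tool, annotation and strand setting were not given in the sources read. The counts (8655155 to 12024802 per replicate) were matched by Ensembl gene to GENCODE release 44, which left 1103 of 58051 genes without a match, and converted here to TPM over the union of each gene's exons. Classes followed the study's methods (0.01 TPM, then 3 quantiles), within protein-coding genes. Means and SDs are over the 3 replicates, and no test was made, since there is 1 condition. Exon overlap came from bedtools 2.31.1, similar transcripts from blastn 2.17.0 (at least 95% identity over 300 bp), and scaling factors from edgeR 4.0.16 and DESeq2 1.42.0 in R 4.3.3. Python 3.11.15, numpy 2.4.6 and pandas 2.3.3 were used for the rest. The script was tested on simulated data. Members are given by symbol and all may be named; values in every replicate are for paralog sets, partner complexes and the highest and lowest members. The members and lists were chosen with earlier results of these data known.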

Additional observations from a re-analysis of the deposited data

How the results depend on the processing

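With 1 condition, no value here has a test, and the 3 replicates limit every error. The mitotic median (78.4 TPM) was 97.05 TPM with protein-coding genes only in the total, 83.4 without KIF2B and KIF4B and 60.3 with canonical transcripts, and 76.8 to 80.9 leaving out each replicate. The transport median (30.6 TPM) was 39.5 with the longest transcript as length, 31.95 without mitochondrial genes, 37.9 with protein-coding genes only, 32.7 without KIF21A, KIF21B, KIFC2 and KIFC3, 29.8 as a median over replicates and 35.8 with canonical transcripts, and 29.1 to 31.9 leaving out each replicate. Their ratio (2.59) was 1.875 with the longest and 1.69 with canonical transcripts, and 2.52 to 2.70 leaving out each replicate. The mitotic share of kinesin TPM (56.0%) was 51.9% with the longest transcript, 59.3% with KIF2A and CENPE added and 53.8% with canonical transcripts, and 55.75% to 56.4% leaving out each replicate. The high class held 12 mitotic genes in all alternatives but 2. It held 14 of 16 when KIF2A and CENPE were added, and 11 of 13 without members that share 10% or more of their exon length with other genes. It held 7 of 17 transport genes when 1 TPM was the limit of expressed genes, 8 of 13 without KIF21A, KIF21B, KIFC2 and KIFC3, and 9 or 10 in the others. In every alternative the ratio stayed above 1, from 1.69 to 2.75. The canonical transcript was chosen as an alternative after seeing the data. No paired analysis was possible because there is only 1 group. Members under 300 reads, and reads shared with overlapping genes or copies, leave levels uncertain.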

Other observations

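Among related genes that are not members, STARD9, a protein-coding kinesin of the centrosome under another name, had 84, 97 and 71 reads in replicates 1, 2 and 3, or 1.54 ± 0.00703 TPM (SD, n = 3). KIF1C-AS1, a long noncoding RNA on the opposite strand of KIF1C, had 58, 81 and 67 reads, and 14.4% of its exon length lies over exons of KIF1C, so its reads cannot be separated from those of KIF1C without strand. KIF23-AS1 had 30, 33 and 23 reads and KIF9-AS1 20, 24 and 12. The pseudogene KIF28P had 3, 4 and 3 reads. KIF4CP, KIF3AP1, KIF18BP1, KIF26B-AS1 and KIF18B-DT had 0 reads in every replicate, which allows up to 3 reads in each and covers counting error only.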
